A study of Mus musculus with 12 samples.

Results

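Alas2, Hbb-b2, Slc4a1, Fech, Bpgm and Epb42 are 6 genes of the red blood cell, and their transcripts were followed in nervous tissue of newborn mice. They were found as the probe sets annotated to 1 of these symbols alone, which gave 15 probe sets for the 6 genes, among 18193 genes with such a probe set on the array. The brightest probe set of a gene, by its mean over the 12 samples, stood for that gene, and the other probe sets served as a check. The 4 groups of 3 samples each were NR3B knockout mice at postnatal day 5 (P5KO), wild type at postnatal day 5 (P5WT), NR3B knockout mice at postnatal day 0 (P0KO) and wild type at postnatal day 0 (P0WT). NR3B is the protein name of an NMDA receptor subunit encoded by Grin3b. One label field names the tissue as brain, and another adds hindbrain and spinal cord to it. The strain, the deleted part of the gene, and whether blood was washed out of the tissue are not given in the sources used here. Samples of a group are numbered 1 to 3, and no label states that each is a different animal, so the p-values rest on a spread that could be partly technical.

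Red blood cells carry oxygen on hemoglobin, which joins alpha and beta globin chains to heme. Heme is built by a chain of enzymes that starts in mitochondria with 5-aminolevulinate synthase and ends there with the insertion of iron by ferrochelatase. Alas2 encodes the synthase of the red cell lineage, while Alas1 encodes the one used in all tissues. Hbb-b2 encodes an adult beta globin. Slc4a1 encodes band 3, the anion exchanger that also anchors the membrane to its skeleton, and Epb42 encodes protein 4.2, which binds band 3. Bpgm makes 2,3-bisphosphoglycerate, the glycolytic by-product that lowers the oxygen affinity of hemoglobin. Immature red cells in the circulation of a newborn still hold such transcripts, and mature mouse red cells have no nucleus. In bulk tissue, fewer red cells and less RNA per red cell cannot be told apart. Fech and Bpgm had mean signals of 7186 and 10881, against 2126 for Alas2. The part of other cells of the tissue in these signals was not tested.

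The RefSeq promoter table of mouse build GRCm38.p6 held 3 of the 6 genes, and the stretches before the start of Alas2 and Bpgm are shown because both genes were higher at P5 than at P0 in wild type while only Alas2 is specific to the lineage. Each covers the 250 bases before the annotated start, read 5′ to 3′ on the strand of the gene. Capitals mark GATA motifs (AGATAA, in which the first base may also be T and the last may also be G), the CACCC motif and the CCAAT motif on either strand.
Alas2, chrX:150547167-150547416, plus strand: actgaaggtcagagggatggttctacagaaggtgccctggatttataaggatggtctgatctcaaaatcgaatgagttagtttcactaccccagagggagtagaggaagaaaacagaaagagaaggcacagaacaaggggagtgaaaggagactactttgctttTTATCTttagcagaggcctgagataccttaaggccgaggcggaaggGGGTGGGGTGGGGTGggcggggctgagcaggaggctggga
Bpgm, chr6:34476106-34476355, plus strand: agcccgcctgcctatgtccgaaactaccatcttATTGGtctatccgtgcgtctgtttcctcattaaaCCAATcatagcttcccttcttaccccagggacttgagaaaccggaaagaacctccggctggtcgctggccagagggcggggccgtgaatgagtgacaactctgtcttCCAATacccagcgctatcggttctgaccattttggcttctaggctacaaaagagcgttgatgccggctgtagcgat
The Alas2 stretch held 1 GATA motif, as TTATCT 86 bases before the start, and 3 copies of CACCC, read as GGGTG, that begin 40, 35 and 30 bases before the start. The Bpgm stretch held neither of these motifs and had 3 copies of CCAAT, of which Alas2 had 0. The Epb42 window held 1 GATA motif and 0 of CACCC. Of 32851 promoter windows of 300 bases in the same table, 29.8% held a GATA motif, 57.5% held CACCC and 37.4% held CCAAT, so each motif alone is common. TATAAA was searched too and was found 1 time in the Alas2 window, 1 time in that of Epb42 and 0 times in that of Bpgm, against 13.6% of windows.

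Values are deposited probe set signals on a linear scale unless a log2 value is named. Differences are on the scale of quantile-normalized log2(signal + 16), with the standard error (SE) of limma, and a gene was called where its adjusted p over all 12600 genes tested was under 0.05. The only Grin3b probe set gave 39.7 to 48.5 in P5KO and 155 to 273 in P5WT, and 31.4 to 96.9 in P0KO and 198 to 353 in P0WT, so the knockout samples were lower at both ages. Neural markers read after the other choices were made were bright in all 12 samples, with Tubb3 and Snap25 of neurons between 38077 and 65550. Hoxc8, a gene of the spinal cord, gave 2755 to 3708 in P5KO and 3808 to 4239 in P5WT. At P0 its ranges were wider, 3510 to 9030 in P0KO and 3124 to 7719 in P0WT. The P0WT samples stood apart in technical values. The control probe set for 18S ribosomal RNA ending in _3_at read 7728 in P0WT sample 1 and 48911 in P0WT sample 3. The remaining 10 samples read 78423 to 110512 on it. On the set ending in _M_at, P0WT samples 1, 2 and 3 read 3618, 22790 and 25764, and the other groups read 34932 to 61945. P0WT sample 2 was thus low on that set too. P0WT samples 1 and 3 were the lowest of all 12 for Alas2, Hbb-b2 and the 4 shared globin probe sets described below. The part of RNA quality in this was not tested. In turn, limma's array weights were 0.359 for P0WT sample 1 and 0.188 for P0WT sample 2, against 0.374 to 2.45 for the others. The median SD between samples of a group was 0.133 log2 units in P5KO and 0.119 in P5WT, against 0.210 in P0KO and 0.269 in P0WT.

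Of the 6 genes, 5 passed the filter on dim probe sets, a mean log2 level of 8.72, and entered the fit over genes. Epb42 lay under it and was read from the fit over all probe sets. In the comparison of P5 with P0, all 5 genes were above 0 in both genotypes. In knockout 1 of the 5 was called as higher (Slc4a1), beside 5.54% of all genes tested. In wild type 3 were called as higher (Slc4a1, Alas2 and Bpgm), beside 10.8%. Slc4a1 entered the test through its P5 samples, and the Bpgm call was lost in 5 of 12 fits that left out 1 sample. In the comparison of the genotypes, 0 of the 5 passed the threshold at either age, beside 0.0238% of all genes at P0 and 0.00794% at P5. At P0 all 6 were nevertheless above 0 in knockout minus wild type. Alas2 and Hbb-b2 had knockout samples that all lay above the wild-type samples, as did 6.6% of all genes tested. The plot of signals by sample shows the 6 genes in the 4 groups.

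**Figure D1:**
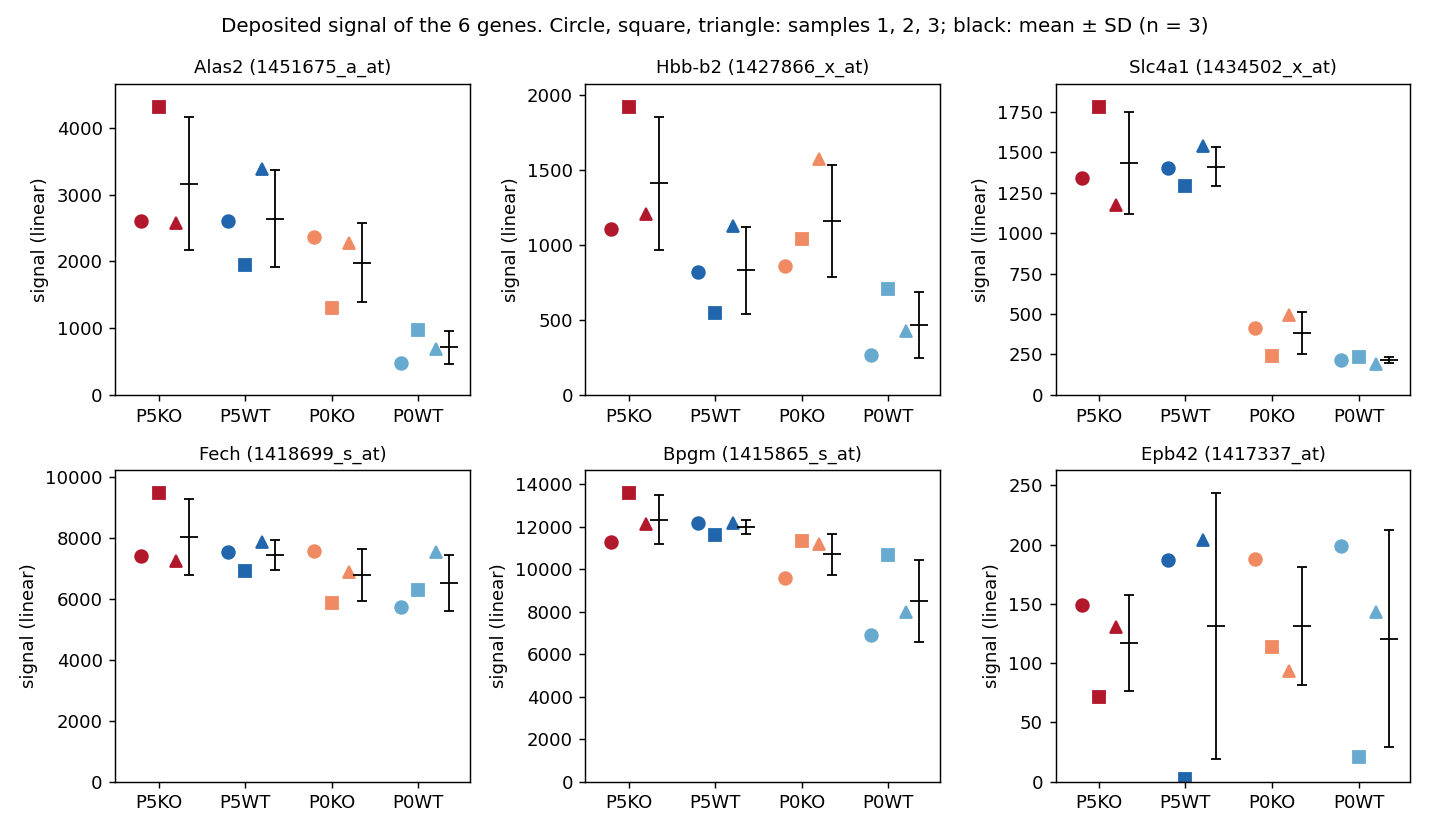
Deposited signal (linear axis from 0) of the 6 genes in the 12 samples, with groups on the horizontal axis. Points are samples 1 (circle), 2 (square) and 3 (triangle), and black marks are the mean ± SD (n = 3). Slc4a1 separated the ages in both genotypes, Alas2 was lowest in P0WT, Fech overlapped in all groups, and Epb42 was dim, between 2.55 and 204.

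Slc4a1, the band 3 anion exchanger, was called with age in both genotypes. Its probe set 1434502_x_at gave 1343, 1783 and 1178 in P5KO, 1405, 1293 and 1537 in P5WT, 417, 243 and 494 in P0KO, and 218, 233 and 193 in P0WT. All P5 samples lay above all P0 samples in both genotypes. The mean log2 levels were 10.48 in P5KO and 10.45 in P5WT, against 8.60 in P0KO and 7.84 in P0WT. Both P0 means lay under the filter level of 8.72, so the gene entered the test through its P5 samples, and its fold depends on dim P0 signals. The P5 minus P0 difference was 1.87 (SE 0.29) in knockout, a 3.67-fold rise (limma adjusted p = 0.00106), and 2.61 (SE 0.29) in wild type, a 6.11-fold rise (adjusted p = 6.93e-05). With no filter on dim genes the adjusted p was 0.00168 in knockout and 0.000106 in wild type. A second probe set of the gene, 1416464_at, gave 1228, 1162 and 1331 in P5KO, 861, 926 and 1028 in P5WT, 392, 222 and 233 in P0KO, and 237, 156 and 222 in P0WT. It rose by 2.13 in knockout (SE 0.27, adjusted p = 0.000499 over all probe sets) and by 2.10 in wild type (SE 0.27, adjusted p = 0.000469). Among all 45037 probe sets, 3.5% were called in knockout and 5.82% in wild type. The third probe set, 1431743_a_at, was dim and gave differences of -1.03 (SE 0.76) in knockout and 0.17 (SE 0.76) in wild type.

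Alas2, which starts heme synthesis in the red cell lineage, had 1 probe set, 1451675_a_at. Its signals were 2607, 4318 and 2570 in P5KO, 2598, 1942 and 3387 in P5WT, 2372, 1301 and 2275 in P0KO, and 480, 972 and 688 in P0WT. The means were 3165 ± 999 in P5KO, 2642 ± 723 in P5WT, 1983 ± 592 in P0KO and 713 ± 247 in P0WT (SD, n = 3 each). P5KO and P5WT overlapped, as did P5WT and P0KO, and P0WT lay below every other sample. In knockout the P5 minus P0 difference was 0.64 (SE 0.31, adjusted p = 0.222), with the P5KO samples all above the P0KO samples. In wild type the gene rose by 1.88 (SE 0.31), or 3.68-fold (adjusted p = 0.00158). The test of whether these changes with age differ, which is the same as whether the genotype difference differs between the ages, gave -1.24 (SE 0.44, adjusted p = 0.743), with an unadjusted p of 0.0149.

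Bpgm, the bisphosphoglycerate mutase, changed less. Its probe set 1415865_s_at gave 11298, 13563 and 12145 in P5KO, 12167, 11601 and 12158 in P5WT, 9592, 11345 and 11170 in P0KO, and 6885, 10652 and 8000 in P0WT. All P5WT samples lay above all P0WT samples, while P5KO and P0KO overlapped by a small margin. The P5 minus P0 difference was 0.20 (SE 0.15, adjusted p = 0.467) in knockout and 0.54 (SE 0.15) in wild type, or 1.46-fold (adjusted p = 0.0252). The call in wild type did not hold for the other probe sets, 1415864_at with 0.30 (SE 0.19, adjusted p = 0.378) and 1448119_at with 0.40 (SE 0.14, adjusted p = 0.109), nor without any 1 of P5WT samples 1, 2 and 3 and P0WT samples 1 and 3 (adjusted p = 0.0652 to 0.0940, with the difference between 0.39 and 0.56). It was also lost after median scaling (adjusted p = 0.0770) and in a fit on only P5WT and P0WT (adjusted p = 0.0815).

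Hbb-b2 and Fech did not pass the threshold with age in either genotype. Hbb-b2, the beta globin, gave 1105, 1922 and 1204 in P5KO, 821, 545 and 1126 in P5WT, 860, 1040 and 1575 in P0KO, and 268, 707 and 426 in P0WT with probe set 1427866_x_at. The mean of this probe set over the 12 samples was 967, against 109902 for 1417184_s_at, which is shared by Hbb-b2 and other beta globins and described below. What part of the beta globin transcripts the dimmer set reads was not tested. The difference of 1427866_x_at with age was 0.26 (SE 0.39, adjusted p = 0.742) in knockout and 0.83 (SE 0.39, adjusted p = 0.140) in wild type. The ages overlapped in both genotypes. Without P0WT sample 2 the difference of Hbb-b2 in wild type was 1.19 (adjusted p = 0.0238). Fech, the ferrochelatase that inserts the iron, gave 7394, 9458 and 7225 in P5KO, 7537, 6899 and 7854 in P5WT, 7572, 5862 and 6889 in P0KO, and 5719, 6305 and 7521 in P0WT with probe set 1418699_s_at. Its difference with age was 0.23 (SE 0.15, adjusted p = 0.360) in knockout and 0.22 (SE 0.15, adjusted p = 0.306) in wild type, and each pair of neighbouring groups overlapped. The Fech probe set 1449181_at gave -0.05 (SE 0.15) in knockout and -0.12 (SE 0.15) in wild type, so the probe sets of the gene did not share a direction.

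Epb42, the band 3 partner, could not be followed. Its probe set 1417337_at gave 71.7 to 149 in P5KO, 2.55 to 204 in P5WT, 93.1 to 188 in P0KO and 20.5 to 199 in P0WT. The ranges covered each other, and the difference with age was -0.09 (SE 0.87) in knockout and -0.20 (SE 0.87) in wild type. Its second probe set, 1417338_at, was dim too and gave 0.45 (SE 0.71) in knockout and 1.30 (SE 0.71, adjusted p = 0.312) in wild type.

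In the set of genes that entered the test, 5.54% rose and 4.94% fell with age in knockout, and 10.8% rose and 8.56% fell in wild type, so a call with age was common. The 1 of 5 in knockout and 3 of 5 in wild type stand beside these shares, and Slc4a1 had to be high at P5 to be tested. Every P5 sample lay above every P0 sample in 14.6% of all genes in knockout, as for 2 of the 6 genes here (Slc4a1 and Alas2), and in 18.4% of all genes in wild type, as for 3 of the 6 (Slc4a1, Alas2 and Bpgm). The median difference of the 5 genes was 0.26 in knockout, against -0.03 over all genes tested, and 0.83 in wild type, against 0.03. Nothing particular to these genes is drawn from the counts, since the genes were chosen with earlier results known.

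**Figure D2:**
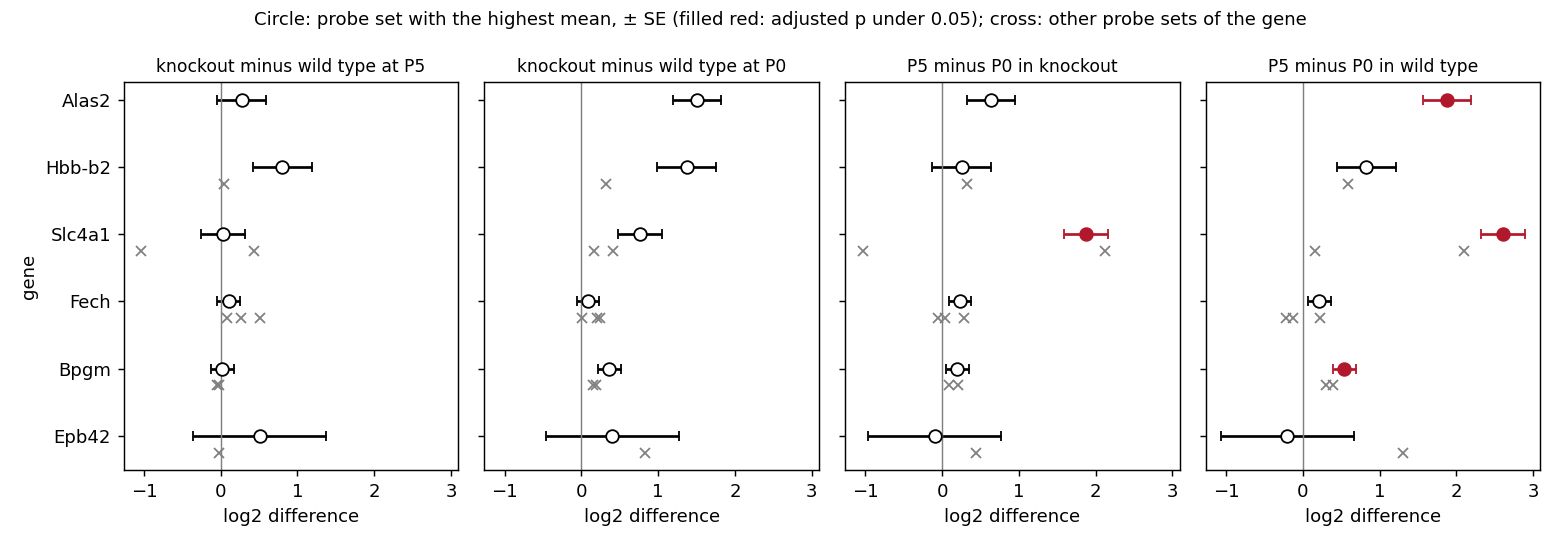
Log2 differences (horizontal axis) of the 6 genes (rows) in 4 comparisons, as circles ± SE for the probe set with the highest mean, filled red where the adjusted p was under 0.05, and as crosses for the other probe sets. Slc4a1 stands at 1.87 in knockout and 2.61 in wild type with age, over P0 levels under the filter, and Alas2 at 1.51 and Hbb-b2 at 1.37 in knockout minus wild type at P0.

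The knockout was compared with the wild type at P0, where the group means of the 6 genes were furthest apart for Alas2 and Hbb-b2. Alas2 differed by 1.51 (SE 0.31), or 2.84-fold, with knockout samples between 1301 and 2372 and wild-type samples between 480 and 972. The adjusted p was 0.260 and the unadjusted p was 0.000302. Hbb-b2 differed by 1.37 (SE 0.39), or 2.59-fold, with 860 to 1575 in knockout and 268 to 707 in wild type (adjusted p = 0.286). Permuting the sample labels in an exact two-sided test gave p = 0.1 for each of the pair, the smallest p that 3 samples against 3 allow.

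Slc4a1 gave 0.77 (SE 0.29, adjusted p = 0.289) and Bpgm 0.37 (SE 0.15, adjusted p = 0.292), and both overlapped between the genotypes after normalization. On the deposited scale, the lowest Slc4a1 signal in P0KO, 243, lay just above the highest in P0WT, 233. Fech gave 0.09 (SE 0.15, adjusted p = 0.779) and Epb42 0.41 (SE 0.87, adjusted p = 0.881). Of the 9 further probe sets of the 6 genes, 9 were above 0 and 0 were called. The second Hbb-b2 probe set, 1427865_at, read 441, 434 and 328 in P0KO and 225, 527 and 269 in P0WT, a difference of 0.32 (SE 0.37, adjusted p = 0.754), and these samples overlapped.

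By limma 0 of the 5 tested genes were called at P0, and 4 of them had an unadjusted p under 0.05. Over all 12600 genes 3 were called, or 0.0238%, and 2035 had an unadjusted p under 0.05. Of all genes, 6.6% had every knockout sample above every wild-type sample, as did 2 of the 6 here. The median difference of the 5 was 0.77, which is the value of Slc4a1, against 0.07 over all genes. Slc4a1 entered the test through its P5 samples and was under the filter level in both P0 groups. The genes were also chosen with earlier results known, so nothing particular to them is drawn from these counts or the median. The outcome turned on P0WT sample 2, the wild-type sample with the highest Alas2, Hbb-b2 and Bpgm of its group. Without P0WT sample 2, Alas2 gave 1.78 (SE 0.31, adjusted p = 0.00408), Hbb-b2 gave 1.74 (SE 0.38, adjusted p = 0.00816) and Bpgm gave 0.55 (SE 0.12, adjusted p = 0.00790), when 2690 of all genes were called. Without P0WT sample 1, in turn, Alas2 was 1.24 (adjusted p = 0.630) and Hbb-b2 1.03 (adjusted p = 0.633). Without both, which leaves 1 wild-type sample assumed to vary like the other groups, Alas2 was 1.52 (adjusted p = 0.0505) and Hbb-b2 1.40 (adjusted p = 0.0938), and neither passed.

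At P5 the genotypes overlapped in all 6 genes. Hbb-b2 differed by 0.80 (SE 0.39, adjusted p = 0.9999), with 1105 to 1922 in knockout and 545 to 1126 in wild type. Alas2 differed by 0.27 (SE 0.31), Fech by 0.10 (SE 0.15), Slc4a1 by 0.03 (SE 0.29) and Bpgm by 0.02 (SE 0.15). The 3 smaller values changed sign when P5KO sample 2 was left out, at -0.14 for Slc4a1, -0.02 for Fech and -0.04 for Bpgm. Of 5 tested genes 0 were called, with 0 at an unadjusted p under 0.05, beside 0.00794% of all genes called and 233 genes at that unadjusted p. The second Slc4a1 probe set, 1416464_at, gave 0.44 (SE 0.27) with all knockout samples above all wild-type samples, which 7.67% of all genes also showed. The third, 1431743_a_at, was dim and gave -1.04 (SE 0.76) with all knockout samples below all wild-type samples. Of the 9 further probe sets of the 6 genes, 5 were above 0 at P5 and 0 were called.

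Over both ages together, the average genotype difference was 0.89 (SE 0.22, adjusted p = 0.524) for Alas2 and 1.09 (SE 0.27, adjusted p = 0.524) for Hbb-b2. A two-sided exact permutation of the labels within each age gave p = 0.025 for Alas2 and p = 0.01 for Hbb-b2, where 0.005 is the smallest possible, and 0.135 to 0.54 for the other 4 genes, 6 genes in all. The second Hbb-b2 probe set, 1427865_at, gave an average of 0.19 (SE 0.26) and a permutation p of 0.46. The shared beta globin set 1417184_s_at gave 0.41 (SE 0.14, limma adjusted p = 0.637) and a permutation p of 0.03. These permutation p-values are unadjusted. By limma 0 of 5 genes were called, 2 had an unadjusted p under 0.05, and 0.0238% of all genes were called. Without P0WT sample 2, Alas2 gave 1.03 and Hbb-b2 1.27, and both passed at an adjusted p of 0.0261. The interaction of genotype and age called 0 of the 5 genes and 0% of all genes, with 1 of the 5 and 625 of all genes at an unadjusted p under 0.05. The comparisons with age in wild type and of genotypes at P0 share the P0WT samples, so their values are not independent of each other.

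The globin chains were read more fully by 4 probe sets that are annotated to several adult globin genes and name no single gene. The set 1417714_x_at, annotated to the alpha globins Hba-a2 and Hba-a1, gave 28807, 32164 and 29384 in P5KO, 25414, 19132 and 22853 in P5WT, 20044, 18681 and 35148 in P0KO, and 3820, 13328 and 5675 in P0WT. Its P0WT samples lay below all the others, as those of Alas2 did. At P0 the knockout minus wild type difference was 1.81 (SE 0.34, adjusted p = 0.288), or 3.51-fold, and without P0WT sample 2 it was 2.33 (adjusted p = 0.00234). With age the difference was 0.39 in knockout (SE 0.34, adjusted p = 0.657), and the set rose by 1.80 in wild type (SE 0.34), or 3.48-fold (adjusted p = 0.00655). At P5 the difference between genotypes was 0.41 (SE 0.34, adjusted p = 0.9999), with all knockout samples above all wild-type samples, which 7.67% of all genes also showed. The other shared sets overlapped between the genotypes at P5. Their differences were 0.06 (SE 0.19) for 1417184_s_at, -0.10 (SE 0.16) for 1428361_x_at and 0.02 (SE 0.18) for 1452757_s_at.

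The set 1417184_s_at, annotated to Hbb-bt, Hbb-bs, Hbb-b2 and Hbb-b1, gave 110697, 130928 and 126716 in P5KO, 127834, 110535 and 124482 in P5WT, 153491, 107245 and 121749 in P0KO, and 40958, 102317 and 61866 in P0WT. At P0 the difference was 0.75 (SE 0.19, adjusted p = 0.359), and 0.98 on the deposited scale, where no quantile normalization had been applied. With age it gave 0.14 in knockout (SE 0.19), and -0.04 on the deposited scale, and it rose by 0.83 in wild type (SE 0.19, adjusted p = 0.0219), a call lost on the deposited scale (adjusted p = 0.0587), after median scaling (0.0904), in a fit on only the groups compared (0.0887), with no intensity trend (0.0743) and without P0WT sample 1 (0.58, adjusted p = 0.0578) or any 1 of the P5WT samples (adjusted p = 0.0577 to 0.0910). Both other alpha sets gave smaller differences at P0. These were 0.44 (SE 0.16, adjusted p = 0.369) for 1428361_x_at and 0.58 (SE 0.18, adjusted p = 0.364) for 1452757_s_at. After normalization their knockout samples lay above all wild-type samples, as did 6.6% of all genes tested. On the deposited scale the differences were 0.70 and 0.83, and P0WT sample 2 lay within the range of the knockout samples. Of all 45037 probe sets, 0.0111% were called at P0.

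**Figure D3:**
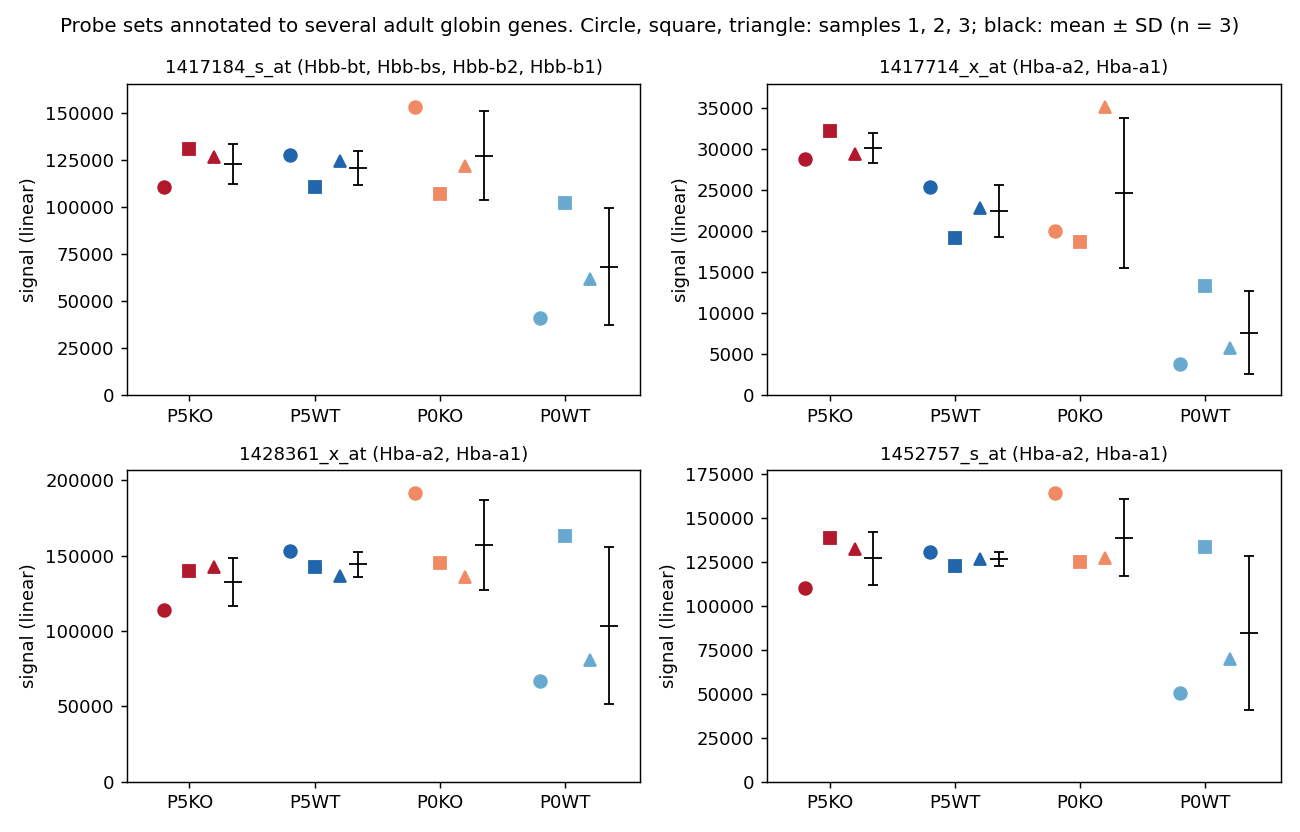
Deposited signal (linear axis from 0) of the 4 probe sets annotated to several adult globin genes, by group and sample, with the mean ± SD in black (n = 3). P0WT samples 1 and 3 lie below the others in each panel, and P0WT sample 2 lies nearer to the knockout samples.

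Of the 9 globin genes listed, Hbb-b1, Hbb-bs and Hbb-bt had no probe set of their own, and Hba-a1, Hba-x, Hbb-bh1 and Hbb-y lay under the filter. The embryonic globins were dim, with differences at P0 of 2.12 (SE 0.81, adjusted p = 0.376) for Hba-x, 0.25 (SE 0.88) for Hbb-bh1 and -0.32 (SE 0.88) for Hbb-y. Hba-a2 had a probe set of its own that averaged 427 ± 63.6 in P0KO and 457 ± 154 in P0WT (SD, n = 3 each), with a difference of -0.03 (SE 0.30, adjusted p = 0.973). This stands beside 0.44 to 1.81 in the 3 shared alpha globin sets.

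The heme enzymes were then read in the order of the pathway, and 8 were tested. With age 0 of the 8 passed in knockout by limma, with 2 at an unadjusted p under 0.05, and in wild type 3 rose and 0 fell. Of all genes tested, 5.54% rose and 4.94% fell in knockout, and 10.8% rose and 8.56% fell in wild type. At P0 0.0238% were called between genotypes. An unadjusted p under 0.05 was reached by 3162 of 12600 genes in knockout, 4553 in wild type and 2035 at P0. The counts of this and each later list stand beside these shares, and nothing particular to a list is drawn from them. Urod, the uroporphyrinogen decarboxylase, gave 0.54 in knockout (SE 0.17, adjusted p = 0.0641) and rose by 0.995 in wild type (SE 0.17, adjusted p = 0.00207). Cpox, the coproporphyrinogen oxidase, gave 0.61 in knockout (SE 0.23, adjusted p = 0.113) and rose by 0.69 in wild type (SE 0.23, adjusted p = 0.0487). Alas2 was the third gene that rose. Alas1, the synthase of all tissues, gave 0.20 in knockout (SE 0.13) and 0.35 in wild type (SE 0.13, adjusted p = 0.0766). At P0 0 of the 8 were called between genotypes, 2 had an unadjusted p under 0.05, and 7 were above 0, with a median of 0.30 against 0.07 over all genes. Urod gave 0.59 (SE 0.17, adjusted p = 0.286) and Ppox, the protoporphyrinogen oxidase, 0.39 (SE 0.19, adjusted p = 0.321), while Alas1 gave 0.09 (SE 0.13).

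**Figure D4:**
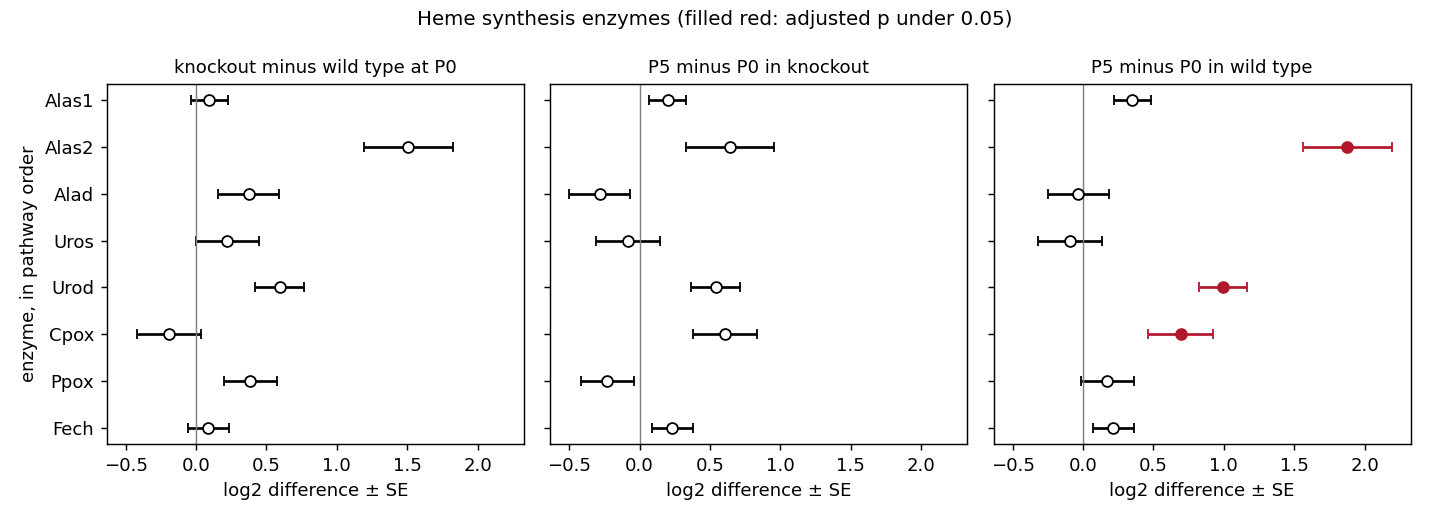
Log2 difference ± SE (horizontal axis) of 8 heme synthesis enzymes in pathway order (rows) in 3 comparisons, filled red where the adjusted p was under 0.05. Alas2 at 1.88, Urod at 0.995 and Cpox at 0.69 passed with age in wild type, and Fech, the last enzyme, gave 0.22 there.

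Heme and iron handling genes numbered 20, of which 17 were tested. With age in knockout 0 rose and 1 fell, and in wild type 3 rose and 1 fell. Blvrb, the biliverdin reductase abundant in red cells, rose by 2.57 in wild type (SE 0.66, adjusted p = 0.0174), Slc25a39, a mitochondrial carrier, rose by 0.60 (SE 0.16, adjusted p = 0.0241), and Fth1, the ferritin heavy chain, rose by 0.36 (SE 0.10, adjusted p = 0.0253). The Blvrb value was taken against a dim P0WT group of 48.0 to 870, whose mean log2 level of 8.17 lay under the filter level. Abcb6, a porphyrin transporter, fell by 0.52 in knockout (adjusted p = 0.0265) and fell by 0.53 in wild type (adjusted p = 0.0180). At P0 0 of the 17 were called between genotypes, with 3 at an unadjusted p under 0.05. Blvrb gave 2.10 (SE 0.66, adjusted p = 0.288), with the knockout samples above the wild-type samples, as in 6.6% of all genes tested. Fth1 gave 0.30 (SE 0.10, adjusted p = 0.288). The median of the list at P0 was 0.14.

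Genes of the red cell membrane and its skeleton differed in both directions. Of 22 genes 13 were tested, and with age 2 rose and 2 fell in knockout and 2 rose and 3 fell in wild type. Beside Slc4a1, the urea transporter Slc14a1 rose by 0.96 in knockout (adjusted p = 0.000697) and by 0.59 in wild type (adjusted p = 0.0109). Add2, an adducin of the skeleton, fell by 0.57 in knockout (adjusted p = 0.0266) and fell by 0.62 in wild type (adjusted p = 0.0120). Dmtn, the actin-bundling dematin, fell by 0.57 in knockout (adjusted p = 0.00466) and fell by 0.43 in wild type (adjusted p = 0.0165). At P0 0 of 13 were called between genotypes, 2 had an unadjusted p under 0.05, and the median was -0.12. Sptb, the beta spectrin, gave -0.56 (SE 0.20, adjusted p = 0.288), opposite in sign to Slc4a1. Adducin, dematin and spectrin genes are also used by neurons. The part of other cells of the tissue in the values of this list, Slc14a1 included, was not tested.

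Of 13 transcription factors and receptors of the lineage 9 were tested, and Gata1, Klf1, Nfe2 and Gfi1b lay under the filter. With age, Myb, a factor of blood progenitors, rose by 1.30 in knockout (adjusted p = 0.00899) and by 1.66 in wild type (adjusted p = 0.00158). Bcl11a, a repressor of embryonic globins that neurons express too, fell by 0.77 in knockout (adjusted p = 0.00629), and Gata2, a factor of early blood progenitors, fell by 0.53 in wild type (adjusted p = 0.0475). In each genotype 1 of the 9 rose and 1 fell. Between genotypes at P0 0 of 9 were called, with 0 at an unadjusted p under 0.05. Among other red cell proteins, 6 of 13 were tested, and with age 2 rose in knockout and 3 in wild type. The poly(A) polymerase Tent5c rose by 1.65 in knockout (SE 0.41, adjusted p = 0.0225) and by 2.11 in wild type (SE 0.41, adjusted p = 0.00424). The carbonic anhydrase Car2 rose by 0.75 in knockout (adjusted p = 0.0267) and by 1.05 in wild type (adjusted p = 0.00329), and the peroxiredoxin Prdx2 rose by 0.56 in wild type (adjusted p = 0.0329). Car2 is also made by glia and choroid plexus. The part of other cells of the tissue in the Myb, Gata2 and Tent5c values was not tested.

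The glycolytic genes beside Bpgm gave a mixed picture. Of 20 genes 15 were tested, and with age 1 rose and 1 fell in knockout and 4 rose and 1 fell in wild type. The hexokinase Hk2 rose by 0.79 in knockout (adjusted p = 0.00694) and by 0.72 in wild type (adjusted p = 0.00816). The phosphofructokinase Pfkp fell by 0.79 in knockout (adjusted p = 0.00665) and fell by 0.81 in wild type (adjusted p = 0.00429), and the isomerase Tpi1 rose by 0.41 in wild type (adjusted p = 0.0151). At P0 the median of the list was 0.00, and 0 of 15 were called between genotypes, with 2 at an unadjusted p under 0.05.

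Markers of other cells of the blood and of vessels and coverings were read beside these results. At P0 the summed signal of 10 genes of meninges and pericytes was 153578 to 188132 in knockout and 90598 to 113167 in wild type, without overlap. Ptgds alone gave 66463 to 88469 in knockout and 22216 to 51620 in wild type. Of the 10 genes 8 were above 0, and 5 had an unadjusted p under 0.05, beside 2035 of all 12600. The pericyte markers Pdgfrb and Rgs5 were lower in knockout, at mean log2 levels of 11.30 and 13.28 against 11.62 and 13.41 in wild type. The growth factor Igf2 gave 0.89 (SE 0.15, adjusted p = 0.177) and the prostaglandin synthase Ptgds 1.04 (SE 0.19, adjusted p = 0.178). Platelet markers summed to 4241 to 6082 in knockout and 2832 to 3753 in wild type over 6 genes, again without overlap, and Pf4, a platelet chemokine, gave 0.98 (SE 0.29, adjusted p = 0.286). Sums for 10 endothelial genes were 24404 to 27362 in knockout and 22531 to 28720 in wild type. Within them Cldn5, a tight junction claudin, gave 0.41 (SE 0.11, adjusted p = 0.286) without overlap, and Flt1, a VEGF receptor, gave -0.63 (SE 0.19, adjusted p = 0.288). Of all genes tested, 6.6% were higher in knockout without overlap at P0. The sums for 5 lymphocyte genes, none of which passed the filter, were 500 to 1334 in knockout and 806 to 947 in wild type. Neutrophil markers summed to 2260 to 3840 in knockout and 1977 to 2849 in wild type over 8 genes, and Ngp, a granule protein, gave 0.75 (SE 0.25, adjusted p = 0.288) without overlap. Of 5 liver plasma protein genes 4 lay under the filter, and the other, Ttr, is also made by the choroid plexus. Ttr gave 52368 to 154970 in knockout and 16501 to 147539 in wild type, with P0KO sample 2 and P0WT sample 2 the lowest of their groups. The part of these cells in the Alas2 and globin differences was not tested.

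Some of these lists differed with age as well. Of all genes tested, 5.54% were called as higher with age in knockout and 10.8% in wild type. The meninges and pericyte sum was 198148 to 215161 in P5KO and 153578 to 188132 in P0KO, with 2 of 10 genes called as higher, and 182877 to 217977 in P5WT and 90598 to 113167 in P0WT, with 6 called. The endothelial sum was 32105 to 35812 in P5KO and 24404 to 27362 in P0KO, with 2 of 10 genes called as higher, and 31879 to 34588 in P5WT and 22531 to 28720 in P0WT, with 3 called. Cldn5 rose by 0.42 in knockout (adjusted p = 0.0208) and by 0.87 in wild type (adjusted p = 0.000155). Among neutrophil genes, Ngp rose by 1.01 in knockout (adjusted p = 0.0217) and by 1.71 in wild type (adjusted p = 0.000693), and S100a9 rose by 1.84 in wild type (adjusted p = 0.0380). The P0WT means of Ngp and S100a9 lay under the filter level. By limma 0 of the 3 tested platelet genes were called with age in either genotype, with 0 at an unadjusted p under 0.05, and the platelet and lymphocyte sums overlapped between the ages in both genotypes. The part of these cells in the rise of Slc4a1 and Alas2 was not tested.

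Sample by sample, several of the genes moved together by their brightest probe sets. P5KO sample 2 was the highest of its group for Alas2, Hbb-b2, Slc4a1, Fech and Bpgm. On the second probe sets of Hbb-b2 (1427865_at) and Slc4a1 (1416464_at) it was instead the lowest, at 355 and 1162. P0WT sample 1, with the low 18S signal, was the lowest of its group for Alas2, Hbb-b2, Fech and Bpgm and for all 4 shared globin probe sets. On the Fech sets 1449181_at and 1418698_a_at, P0WT sample 2 was instead the lowest, at 4438 and 2983. After the group means were taken off, Pearson's r over the 12 samples was 0.81 between Alas2 and Hbb-b2, 0.77 between Alas2 and Fech, 0.74 between Alas2 and Slc4a1, 0.79 between Hbb-b2 and Bpgm, and 0.13 between Slc4a1 and Bpgm. Epb42 gave -0.48 to 0.13 with the other 5. These are descriptions over 12 arrays. The genes on an array share its RNA quality and scaling, and technical values differed between the arrays. The part of this in the r values was not tested.

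**Figure D5:**
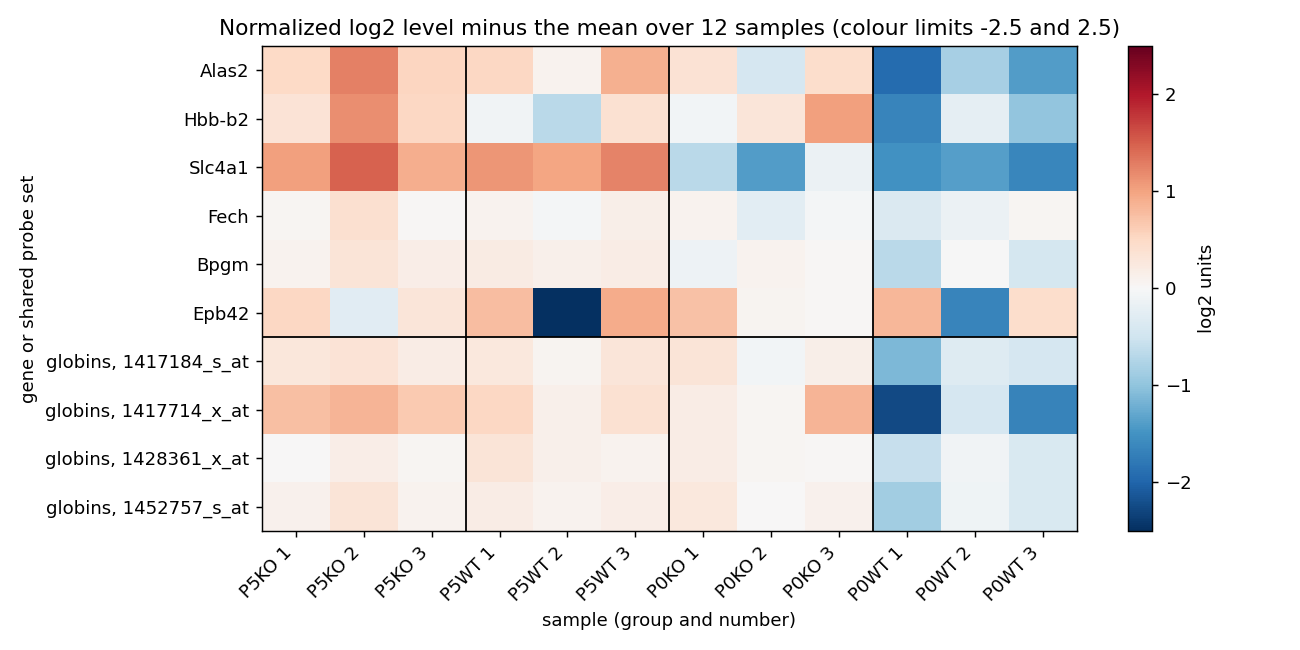
Normalized log2 level of the 6 genes and of the 4 shared globin probe sets (rows) minus their mean over 12 samples, by sample (columns), with red above and blue below the mean and values beyond 2.5 drawn at the limit of the colours. The P0WT columns are blue in the rows of Alas2, Hbb-b2 and the globins, and Slc4a1 is blue in all P0 samples.

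The genes with the most similar levels to Alas2 over the 12 samples, by Pearson's r among all tested genes outside the 6, were Mxd4 (0.96), a repressor that binds Max, Syngr2 (0.94), a synaptogyrin, and Gemin8, Fnta and A330048O09Rik (0.93 each). After the group means were taken off, the closest were Tor2a (0.92) and Zfp189 and Oma1 (0.91 each). For Hbb-b2 they were Slc25a20, a mitochondrial carnitine carrier, and Syf2, Tspan31 and Atp23 (0.93 each), and after the group means Golga7 (0.95). Tspan31 was among the 8 closest to Hbb-b2 by both measures. With 12 samples and 12600 genes, the highest r values are extremes of many, and they are given as descriptions.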

How the data were processed

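Total RNA of 12 samples was measured on Affymetrix arrays. The authors deposited linear intensity values, 1 signal per probe set, and the sources used here do not name the software. The mean of each array was 2500.01 once the top and bottom 2% were trimmed. Signals were transformed as log2(signal + 16) and quantile-normalized, because array medians spread over 0.273 log2 units. Probe sets with a mean under the 40th percentile were dropped, and the brightest probe set stood for a gene. With limma 3.58.1 in R 4.3.3, group means were estimated from the 12 samples together (intensity trend, 8 residual and 5.58 prior degrees of freedom), with Benjamini-Hochberg adjustment over 12600 genes and a threshold of 0.05. Probe sets outside that fit came from a fit on all 45037 non-control probe sets. Alternatives were other scalings, pseudocounts, filters, probe sets, weights, a replicate block and leaving samples out.

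The 6 genes and the gene lists were chosen with earlier results of these data known. All 6 were named, and from each list up to 4 genes with the smallest p in the comparison described. No adjusted p was computed over a list alone. Probe sets with several symbols were given by probe set only. Genes that mark the sex of an animal were not used. The number of arrays limits the precision.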

Additional observations from a re-analysis of the deposited data

How the results depend on the processing

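The number of the 6 genes called stayed within 1.5 times its value, except with array weights and without P0WT sample 2. With limma's array weights 3 genes passed at P0 (Alas2, adjusted p = 0.00613, Hbb-b2, adjusted p = 0.0101, and Bpgm, adjusted p = 0.0104) and 3 in the average over ages, where 3092 of all genes were called at P0 against 3 without weights. Leaving out 1 sample in turn gave 0 to 3 genes at P0 (3 without P0WT sample 2) and 0 to 2 in the average. Over all genes, array weights called 2041 in the average against 3, 6 at P5 against 1, 2104 with age in knockout against 1321, 6032 in wild type against 2442 and 1527 in the interaction against 0. Without P0WT sample 2 these were 734 in the average, 4830 with age in wild type and 194 in the interaction, and without P0WT samples 1 and 2 they were 550 at P0, 34 in the average and 2165 with age in knockout. Fits on only the groups compared called 0 at P0, 6 at P5 and 1321 with age in wild type, and the fit without an intensity trend called 1 at P0 and 0 at P5. Leaving out 1 P5KO sample gave 651 to 799 genes with age in knockout, and leaving out 1 P5WT sample, P0WT sample 1 or P0WT sample 3 gave 1199 to 1433 in wild type. Same-numbered samples deviated together at r over 0.1 in 5 of 18 pairs (range -0.13 to 0.42), so the numbers were not taken as a pairing. At P0 the same-numbered r was 0.42, 0.38 and 0.06, against -0.42 to 0.12 between different numbers, so a partial pairing there was not settled. The replicate block left the members called at 0 at P0, 0 at P5, 1 with age in knockout and 3 with age in wild type, with 1 of all genes called at P0 and 1 in the average, against 3 each. Slc4a1 in both genotypes and Alas2 in wild type passed with age under all alternatives run. Of the values of single genes, 751 kept their direction and side of the threshold, 13 passed newly, 8 no longer passed and 38 changed sign, and for the shared globin probe sets these were 489, 12, 8 and 11.

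The cause of the sign changes was not tested. On the deposited scale and after median centring, the knockout age difference was -0.042 and -0.068 for 1417184_s_at and -0.12 and -0.15 for 1452757_s_at. With pseudocount 64 the Epb42 interaction was -0.061. With the second probe set, Bpgm was -0.020 and Epb42 -0.024 at P5, Fech was -0.051 with age in knockout and -0.12 in wild type, Epb42 was 0.45 with age in knockout and 1.30 in wild type (against -0.09 and -0.20), and the interaction was 0.027 for Slc4a1 (against -0.74) and -0.86 for Epb42. With array weights, Fech was -0.12 and Epb42 -0.022 at P0, Fech was -0.016 in the average and Epb42 0.0085 with age in knockout. Without P0WT samples 1 and 2, Fech was -0.12 and Epb42 -0.16 at P0, and Fech -0.0093 in the average.

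Leaving out 1 sample in turn, Fech ran from -0.018 to 0.19 at P0, -0.016 to 0.17 at P5 and -0.10 to 0.12 in the interaction, Slc4a1 from -0.14 to 0.15 and Bpgm from -0.044 to 0.078 at P5. Epb42 ran from -0.35 to 0.88 at P0, -0.66 to 1.14 at P5, -0.13 to 0.77 in the average, -0.26 to 0.14 with age in knockout, -0.96 to 0.98 in wild type and -1.07 to 0.86 in the interaction. Of the globin sets, 1417184_s_at ran from -0.0085 to 0.10 at P5, 1452757_s_at from -0.051 to 0.062 at P5 and -0.026 to 0.12 with age in knockout, and 1428361_x_at from -0.059 to 0.035 there. Dim signals limit Epb42, and 3 arrays per group limit all tests.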
